A study of Mus musculus with 47 samples.

Results

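Hippocampal gene expression was compared between TG_HFD and WT_HFD mice, the transgenic and the wildtype mice kept on a high fat diet (HFD). The 12 libraries were chosen by their labels, 6 of TG_HFD and 6 of WT_HFD, out of 47 libraries of brainstem and hippocampus in the series. All mice were C57BL/6 males. TG mice were homozygous for human alpha-synuclein with the h[A30P] mutation, which causes familial Parkinson disease, driven by the neuron-specific Thy1 promoter, and WT mice carried no transgene. The WT mice were kept as a parallel colony from the same outcross, so that genotype and colony cannot be told apart. Both groups ate the HFD from weaning until they were a year old. Set beside them here are mice on a standard diet (SD), the groups TG_SD and WT_SD, from the same region, and the brainstem of mice on HFD. Each library held poly(A) RNA of a whole dissected hippocampus with all its subfields, so that fewer cells of a type and less RNA per cell cannot be told apart.

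Alpha-synuclein is a presynaptic protein that binds vesicle membranes, and its aggregates mark Parkinson disease and related dementias. The hippocampus receives cortical input in the dentate gyrus and passes it through CA3 to CA1, and its neurons adjust their genes to activity through immediate early transcription factors such as those of the Egr family. A diet rich in fat is known to impair hippocampal memory tasks in rodents and to alter glia, mitochondria and synaptic genes.

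Total counts ranged from 12923697 to 16497750 in TG_HFD and from 11945971 to 17328447 in WT_HFD libraries. Of 31751 rows in the hippocampus table, the 13272 whose mean over the 24 hippocampus libraries reached 50 counts were tested. Nothing states that a library pooled animals. The labels were first checked on the transgene. The row of the human transgene held 10 to 28 reads in WT_HFD and 53752 to 72863 reads in TG_HFD libraries. Thy1, a neuronal surface glycoprotein whose promoter drives the transgene, had 6943 to 9425 reads in WT_HFD and 91403 to 125962 reads in TG_HFD. Neither row overlapped between the groups. Markers of 15 cell types and neighbouring regions were summed per library as CPM, counts scaled to a common library size, and the ranges of TG_HFD and WT_HFD overlapped for all 15 lists. Summed CA1 pyramidal markers lay between 560 and 609 CPM in TG_HFD and between 602 and 679 CPM in WT_HFD, and dentate granule cell markers between 424 and 476 CPM and between 448.5 and 543 CPM. Meningeal fibroblast markers reached 598 CPM in 1 TG_HFD library, where WT_HFD ended at 336 CPM. Choroid plexus markers reached 160 CPM in TG_HFD and 81.3 CPM in WT_HFD. Of 8 choroid plexus markers 3 passed the filter on counts, and of 7 ependymal markers 1. The part of these cells in the results below was not tested.

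Models of the same counts are reported side by side, since they differ in the number of differentially expressed genes (DEGs). Each fitted the 4 hippocampus groups with edgeR's quasi-likelihood test. DEGs were genes whose log2 fold change was 0.3 or more in size with p, after Benjamini-Hochberg adjustment, not above 0.05, and positive values are higher in TG_HFD. The first model, like that of the study's methods, contained surrogate variables, which are estimated patterns of unwanted variation among libraries, and 4 were estimated here. It called 30 DEGs, with 7 higher and 23 lower in TG_HFD, which are 0.0527% and 0.173% of the tested genes. The study fitted DESeq2 and did not state its number of surrogate variables. Over all its contrasts in hippocampus it reported many more DEGs than this model called in 1 contrast. The second model contained 0 surrogate variables. It called 515 DEGs, with 42 higher (0.316%) and 473 lower (3.56%). Both models called 11 genes. A further model replaced the surrogate variables by a correction for the GC content of the transcripts and called 96 DEGs (0.723%), with 23 higher and 73 lower. All 3 models called 10 genes, namely the human transgene, Thy1 and 8 mouse genes: Cntn3, Cbarp, Pcsk1n, C1qtnf4, Nptx2, Serpina3n and Hist1h2bc were lower and Gm15446 was higher in TG_HFD.

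Promoter sequences are shown for 3 of these 8 genes, all lower in TG_HFD, because their promoters differ widely in base composition. The models part along the GC content of transcripts, which was 63.5% for Cbarp, 41.5% for Cntn3 and 57.3% for Pcsk1n. Promoter composition was not set against the difference between the models. RefSeq entries on GRCm38.p6 covered 5 of the 8 genes, with 250 bases before and 50 bases after the start. Capitals mark GC boxes (GGGCGG) and the Egr motif (GCGNGGGCG), searched on both strands. The motifs can overlap, as they do near the end of the Cbarp sequence.
Cbarp, chr10:80139318-80139617, minus strand: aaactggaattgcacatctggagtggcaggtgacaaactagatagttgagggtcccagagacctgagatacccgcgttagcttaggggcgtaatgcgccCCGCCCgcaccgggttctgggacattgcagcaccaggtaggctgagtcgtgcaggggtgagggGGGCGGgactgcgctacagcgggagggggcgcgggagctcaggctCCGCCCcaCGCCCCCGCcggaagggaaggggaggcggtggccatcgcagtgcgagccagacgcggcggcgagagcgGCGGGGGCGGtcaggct
Cntn3, chr6:102464618-102464917, minus strand: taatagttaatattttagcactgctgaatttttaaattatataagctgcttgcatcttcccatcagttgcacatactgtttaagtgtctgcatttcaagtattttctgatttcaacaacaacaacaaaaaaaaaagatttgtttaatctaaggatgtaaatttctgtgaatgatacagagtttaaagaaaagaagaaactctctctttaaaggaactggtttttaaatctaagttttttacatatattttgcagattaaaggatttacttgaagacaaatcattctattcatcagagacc
Pcsk1n, chrX:7919572-7919871, plus strand: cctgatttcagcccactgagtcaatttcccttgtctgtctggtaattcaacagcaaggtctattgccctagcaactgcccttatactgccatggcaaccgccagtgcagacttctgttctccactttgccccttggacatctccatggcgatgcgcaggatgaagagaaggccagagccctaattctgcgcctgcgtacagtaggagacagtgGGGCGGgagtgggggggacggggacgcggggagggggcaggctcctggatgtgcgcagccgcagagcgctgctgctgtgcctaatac
The Cbarp promoter had a GC content of 68.0% with 27 CpG sites, 4 GC boxes and 2 Egr motifs. Another RefSeq entry for Cbarp, at a start further downstream, had neither motif. The Cntn3 promoter had a GC content of 27.7%, 0 CpG sites and neither motif. That of Pcsk1n had 58.7% GC, 12 CpG sites and 1 GC box. Over all 32851 promoters of this length, the median GC content was 52.7% with 7 CpG sites, and 35.7% held a GC box and 5.55% an Egr motif. These counts of letters describe the windows and show no binding.

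Among the genes of neuronal surface and secretion, Cntn3 had the largest decrease with 4 surrogate variables of the genes that all 3 models called. Cntn3 encodes contactin 3, a lipid-anchored adhesion protein of the immunoglobulin superfamily on neurons. Its normalized count ranged from 252 to 319 in WT_HFD (median 302) and from 135 to 165 in TG_HFD (median 148). Every TG_HFD library was lower than every WT_HFD library. The log2 fold change was -1.02 ± 0.10 (SE, edgeR adjusted p = 3.0e-08) with 4 and -0.96 with 0 surrogate variables. Of 18 contactins and partners tested, Cntn3 was the DEG, and the median log2 fold change of the list was -0.02, against -0.01 over all tested genes. On SD the difference was of like size, -1.0 ± 0.08 (edgeR adjusted p = 1.5e-10). In brainstem it was -0.40 ± 0.12 with an adjusted p of 0.50 from edgeR. An antisense gene model overlaps Cntn3, and the counting is not stated to use strand, so that their reads cannot be told apart.

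Cbarp encodes a protein that binds beta subunits of voltage-gated calcium channels and restrains calcium entry. Its normalized counts were 2132 to 2693 in WT_HFD (median 2575) and 1301 to 1569 in TG_HFD (median 1420), without overlap. Its fold change on the log2 scale was -0.47 ± 0.04 with 4 surrogate variables (edgeR adjusted p = 2.0e-09), -0.45 with the GC correction and -0.82 with neither. On SD it was -0.38 ± 0.03 (edgeR adjusted p = 3.1e-10), again without overlap of the groups. Cbarp overlaps Stk11 and Atp5d on the opposite strand, whose reads cannot be told apart from its own without strand. Of 16 calcium channel genes and regulators tested, Cbarp was the DEG with 4 surrogate variables, and the list's median was -0.03. Without surrogate variables, Cacna1g and Cacna1h, the pore subunits of T-type channels, were also called, at -0.36 and -0.43, and the median was -0.11. Their GC contents were 58.1% and 60.0%, against a median of 49.4% over tested genes, and with the GC correction they stood at -0.17 and -0.18 and were not called.

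Of the 8 mouse genes called by all 3 models, Pcsk1n and C1qtnf4 differed most between 4 and 0 surrogate variables. Pcsk1n encodes proSAAS, a granule protein that inhibits the prohormone convertase PC1. Its normalized counts were 720 to 1775 in WT_HFD (median 1214) and 273 to 494 in TG_HFD (median 430), and no library overlapped. Its log2 fold change was -0.56 ± 0.11 with 4 surrogate variables (edgeR adjusted p = 0.019), -1.46 with the GC correction and -1.62 with neither. On SD the ranges overlapped, with 344 to 831 in WT_SD and 243 to 690 in TG_SD, and the log2 fold change was -0.10 ± 0.09. Eras overlaps Pcsk1n on the opposite strand. Without TG_HFD replicate 8 Pcsk1n was not called, at -0.52 (edgeR adjusted p = 0.12). C1qtnf4 encodes a secreted protein of the C1q and TNF related family. It had 271 to 566 normalized counts in WT_HFD (median 429) and 102 to 194 in TG_HFD (median 141). The groups did not overlap. The log2 fold change was -0.60 ± 0.14 (edgeR adjusted p = 0.034) with 4 surrogate variables, -0.89 with the GC correction and -1.51 with neither. At 70.7%, the GC content of C1qtnf4 was the highest of the 8 genes. The call with 4 surrogate variables was lost in 6 of 12 fits that left out 1 library of either group, namely TG_HFD replicates 3, 4, 5, 6 and 8 and WT_HFD replicate 6.

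**Figure D1:**
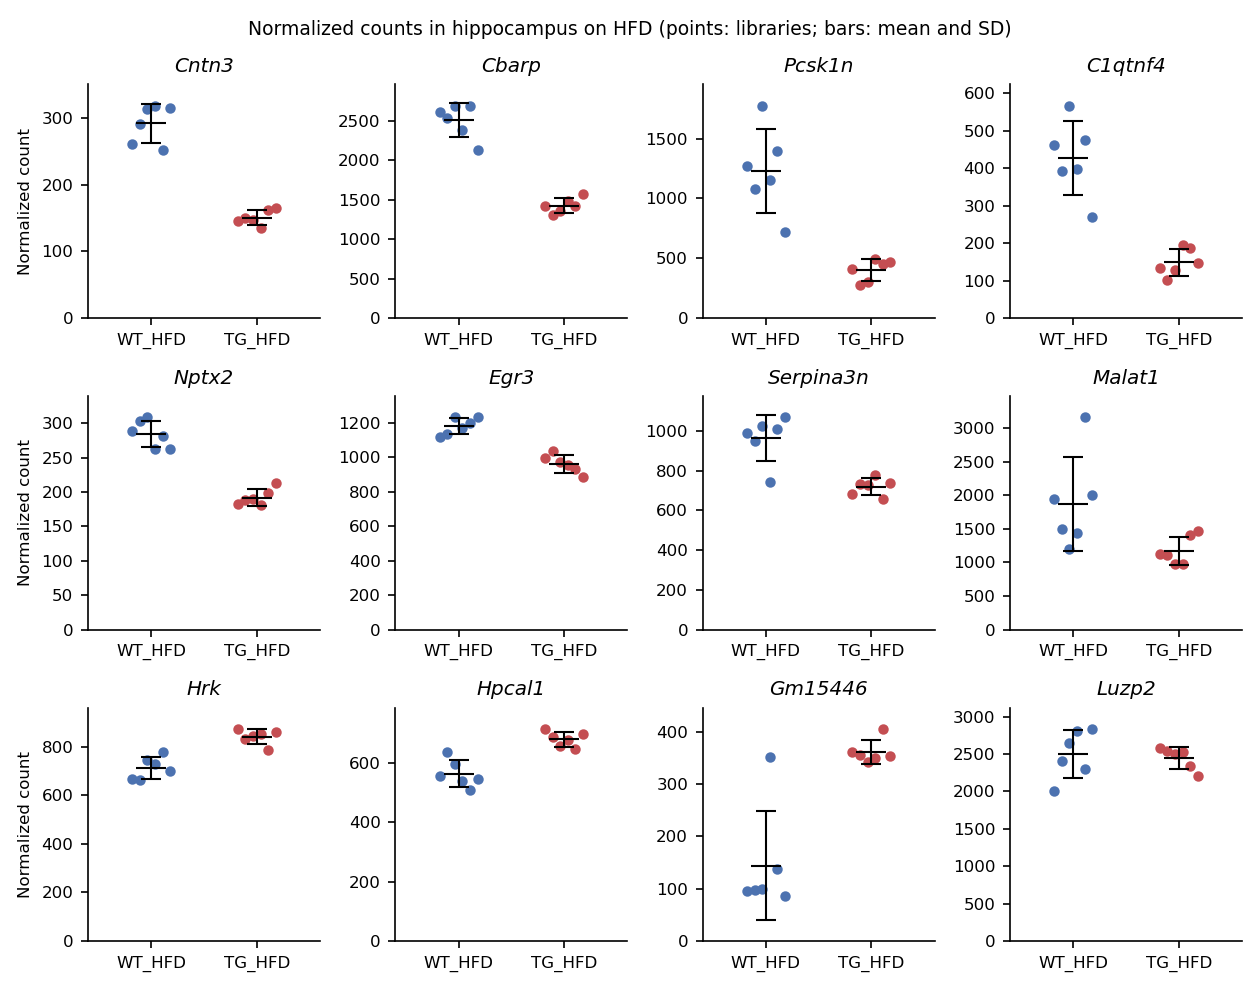
Normalized counts of 12 DEGs in the hippocampus on HFD, with 1 point per library and the mean and SD of 6 libraries as black bars; each axis starts at 0. Cntn3, Cbarp, Pcsk1n, C1qtnf4, Nptx2, Egr3, Hrk and Hpcal1 do not overlap between the groups, WT_HFD replicate 6 lies at 352 among the TG_HFD values of Gm15446, and Luzp2 overlaps fully.

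Of synaptic and activity-regulated genes, Nptx2 and Egr3 were lower in TG_HFD with 4 surrogate variables. Nptx2 is a neuronal pentraxin, released on activity, that clusters AMPA receptors. Its normalized counts were 263 to 309 in WT_HFD (median 286) and 181 to 214 in TG_HFD (median 189). The groups did not overlap, and the log2 fold change was -0.49 ± 0.10 (edgeR adjusted p = 0.016). Nptx2 remained a DEG in all 27 other fits. On SD it was -0.11 ± 0.07 and was not called, but the interaction, which tests the difference between the diets, had an unadjusted p of 0.0017 in edgeR and did not pass adjustment. Egr3, an activity-induced zinc finger transcription factor, had 1119 to 1232 normalized counts in WT_HFD (median 1183) and 884 to 1038 in TG_HFD (median 962), without overlap. Its log2 fold change was -0.30 ± 0.06 (edgeR adjusted p = 0.019), which lies at the threshold of size. The call was lost without TG_HFD replicate 8 (-0.26) and without WT_HFD replicate 7 (-0.28).

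The other immediate early genes lay lower in the model with 0 surrogate variables. Of 20 tested, 15 had a negative log2 fold change in each model. Over all tested genes, 52.2% were negative with 4 and 48.9% with 0 surrogate variables. Without surrogate variables 5 of the 20 were called lower, namely Egr4, Junb, Jund, Arc and Nr4a1, and the list's median was -0.24, beside 0.00 over all tested genes. The GC contents of these 5 ran from 56.95% (Nr4a1) to 68.2% (Egr4), against a median of 49.4% over tested genes. With the GC correction the list's median was -0.11. With 4 surrogate variables Egr3 alone was called, and the median was -0.09. Egr4 had 77.4 to 133 normalized counts in WT_HFD (median 103) and 41.5 to 69.3 in TG_HFD (median 52.5). Its log2 fold change was -0.97 (edgeR adjusted p = 3.0e-04) with 0 and -0.52 ± 0.17 (adjusted p = 0.19) with 4 surrogate variables. With the GC correction Egr4 was at -0.44 (edgeR adjusted p = 0.065) and not called. Junb, a subunit of the AP-1 factor, had 232 to 406 normalized counts in WT_HFD (median 312) and 141 to 178 in TG_HFD (median 151). It stood at -1.0 with 0 surrogate variables, at -0.65 (edgeR adjusted p = 0.0068) with the GC correction, where it was the DEG of this list, and at -0.22 with 4 surrogate variables. Neither Egr4 nor Junb overlapped between the groups. Arc, which regulates AMPA receptor endocytosis, overlapped, with 658 to 1360 in WT_HFD and 569 to 826 in TG_HFD.

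Other DEGs included a gene of reactive astrocytes and genes of the extracellular matrix and cell adhesion. Serpina3n, a secreted protease inhibitor that marks reactive astrocytes, had 744 to 1069 normalized counts in WT_HFD (median 999) and 658 to 779 in TG_HFD (median 729). The ranges overlapped by 1 library, WT_HFD replicate 6 at 744, while the other WT_HFD libraries began at 951. The log2 fold change was -0.49 ± 0.10 (edgeR adjusted p = 0.013), and -0.57 without that library. It was not called without TG_HFD replicate 7 (-0.44, edgeR adjusted p = 0.058) or WT_HFD replicate 8 (-0.38, edgeR adjusted p = 0.058). It was -0.43 ± 0.07 (edgeR adjusted p = 0.0024) on SD and 0.21 ± 0.11 (not called) in brainstem. Of 9 reactive astrocyte genes tested, 8 had a negative log2 fold change, beside 52.2% of all tested genes. Serpina3n was the DEG of this list, and the list's median was -0.20. The next in size was C4b, a complement gene, at -0.36 (edgeR adjusted p = 0.089), and with 0 surrogate variables it stood at -0.10. Slc38a3, a glutamine transporter of astrocytes, had 690 to 859 in WT_HFD and 598 to 721 in TG_HFD, with a log2 fold change of -0.37 ± 0.07 (edgeR adjusted p = 0.010). Cst3, the protease inhibitor cystatin C, had 10186 to 13334 and 8137 to 11039, with -0.30 ± 0.05 (edgeR adjusted p = 0.0023). Fn1, the matrix protein fibronectin, fell by 0.44 on the log2 scale, Hapln1, a link protein of perineuronal nets, by 0.34 and Vcl, the adhesion protein vinculin, by 0.43. Mmp14, a membrane-bound matrix protease, rose at 0.54 ± 0.12 (edgeR adjusted p = 0.034). The 6 genes from Slc38a3 to Mmp14 were called neither with 0 surrogate variables nor with the GC correction, and their ranges overlapped. When 1 library was left out, Slc38a3 was called in 12 of 12 fits, Fn1 and Hapln1 in 10, Vcl in 5 and Cst3 and Mmp14 in 3. Microglial activation genes held 0 DEGs of 16 tested with 4 surrogate variables. C1qc, a complement subunit, was called at -0.38 with 0.

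The remaining higher genes were few. Hrk, which encodes a BH3-only protein that promotes apoptosis of neurons, had 662 to 778 normalized counts in WT_HFD (median 715) and 787 to 874 in TG_HFD (median 849). Its log2 fold change was 0.37 ± 0.06 (edgeR adjusted p = 0.0023), without overlap. It was 0.24 without surrogate variables and with the GC correction 0.25, both under the threshold of size. Hpcal1, a neuronal calcium sensor, had 506 to 634 and 646 to 714, also without overlap, and 0.42 ± 0.08 (edgeR adjusted p = 0.013) with 4, but 0.27 with 0 surrogate variables. With the GC correction it was called at 0.34, and with 4 surrogate variables in 7 of 12 fits that left out 1 library (not without TG_HFD replicates 5, 7 and 8 and WT_HFD replicates 6 and 8). Car12, a carbonic anhydrase at the cell surface, had 444 to 521 and 517 to 627, and 0.40 ± 0.08 (edgeR adjusted p = 0.019). It was called neither with 0 surrogate variables (0.25) nor with the GC correction (0.24, edgeR adjusted p = 0.105), and its call was lost without TG_HFD replicates 5, 6 and 8 and WT_HFD replicate 8. On SD Car12 was called, at 0.38 ± 0.06.

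Gm15446, a predicted gene on chromosome 5, had the largest change with 4 surrogate variables among the mouse genes other than Thy1 that all 3 models called. Its normalized counts were 85.6 to 352 in WT_HFD (median 98.1) and 342 to 406 in TG_HFD (median 355). WT_HFD replicate 6 alone stood at 352, within the TG_HFD range, and the other WT_HFD libraries ended at 137. The log2 fold change was 1.39 ± 0.28 (edgeR adjusted p = 0.019), and 1.91 ± 0.21 (edgeR adjusted p = 5.4e-07) without that library. It was not called in 4 of 12 fits that left out 1 library, at 1.28 without TG_HFD replicate 6 or 7, 1.41 without TG_HFD replicate 8 and 0.98 without WT_HFD replicate 8 (edgeR adjusted p from 0.061 to 0.070). The same library also lay within the TG_HFD range at 2 other genes of chromosome 5. Zfp932, a zinc finger gene, stood at 387 there, where the other WT_HFD libraries ran from 201 to 335 and TG_HFD from 353 to 416. It had a log2 fold change of 0.46 ± 0.13 (edgeR adjusted p = 0.12), which became 0.62 (edgeR adjusted p = 0.0040) without WT_HFD replicate 6. Gabra2, a subunit of the GABA-A receptor, stood at 3898, where the other WT_HFD libraries ran from 1957 to 2694 and TG_HFD from 3691 to 4328. Gabra2 was called with 0 surrogate variables, at 0.60 (edgeR adjusted p = 0.049), and was at 0.60 ± 0.19 (adjusted p = 0.18) with 4. These 3 genes were set together after their values were seen. Gm15446 was also higher on SD (1.70 ± 0.23, edgeR adjusted p = 4.6e-05) and in brainstem on HFD (1.77 ± 0.21, edgeR adjusted p = 2.0e-05). So was Zfp932, on SD (0.57 ± 0.10, edgeR adjusted p = 0.0024) and in brainstem on HFD (0.57 ± 0.10, edgeR adjusted p = 0.012). Gabra2 was higher in brainstem on HFD (0.74 ± 0.14, edgeR adjusted p = 0.025) but was not called on SD in hippocampus (0.475 ± 0.15, edgeR adjusted p = 0.25).

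Among the 30 DEGs were also noncoding RNAs, rows with uncertain counts and genes whose call depended on the model. Malat1, a long noncoding RNA kept in the nucleus, had 1194 to 3166 normalized counts in WT_HFD (median 1723) and 975 to 1463 in TG_HFD (median 1117). The ranges overlapped. Malat1 had a log2 fold change of -0.83 ± 0.11 (edgeR adjusted p = 4.8e-05) with 4 surrogate variables, and -0.67 (edgeR adjusted p = 0.063) with 0. It was -0.43 without WT_HFD replicate 8, where the call was lost. Of 9 nuclear-retained noncoding RNAs, Malat1 was the DEG. Gm29611 had normalized counts of 162 in WT_HFD replicate 3 and 20.8 in WT_HFD replicate 6, 0 in the other WT_HFD libraries and at most 1.10 in TG_HFD. Its sign turned without WT_HFD replicate 6 or 8. Gm13339 is an unprocessed pseudogene and Hist1h2bc a member of the histone family, both with close copies, so that their counts are uncertain. Hist1h2bc had 298 to 387 normalized counts in WT_HFD and 213.5 to 275 in TG_HFD, without overlap. Its log2 fold change was -0.43 ± 0.10 (edgeR adjusted p = 0.044) with 4 surrogate variables. That call held in 4 of 12 fits that left out 1 library. The row of the microRNA locus Mir684-2 can hold no mature microRNA in a poly(A) library. Luzp2, Hapln1, Gm13339, Lypla1, Mir684-2 and Gt(ROSA)26Sor were called lower with 4 surrogate variables although their groups overlapped, for example with medians of 2523 in WT_HFD and 2516 in TG_HFD for Luzp2. With 0 surrogate variables the log2 fold changes of these 6 genes lay between -0.09 and 0.08.

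The genes called with 0 surrogate variables differed from the rest in base composition. The median GC content was 59.8% for the 473 lower and 43.1% for the 42 higher DEGs, against 49.4% over the tested genes. Tested genes were split into 10 bins of GC content, of 1319 to 1329 genes each. The median log2 fold change with 0 surrogate variables fell from 0.09 in the lowest bin to -0.23 in the highest bin, and 330 of the 515 DEGs were in the highest bin, all of them lower in TG_HFD. With 4 surrogate variables the bin medians lay between -0.03 and 0.00, and with the GC correction they reached at most 0.02. The GC correction takes out each library's trend on GC content, so that its flat medians follow from its construction. Of the 30 DEGs with 4 surrogate variables, 3 were in the highest bin and 8 in the lowest.

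The libraries themselves carried this trend. The GC slope is how much a library's log2 level, set against the mean of all libraries, changes for every 10% of transcript GC content. It was -0.05 ± 0.05 (SD, n = 6) in TG_HFD and 0.10 ± 0.07 (SD, n = 6) in WT_HFD. It ran from -0.125 to 0.01 in TG_HFD and from -0.02 to 0.17 in WT_HFD. The difference was -0.15 with p = 0.00649 in a two-sided exact permutation test, or 0.0324 adjusted over the 5 library measures compared. Of the others, total count (p = 0.128), the slope on transcript length (p = 0.848), the mitochondrial share of reads (p = 0.121) and the number of genes with a count (p = 0.535) did not pass the threshold in the same exact permutation test. The slopes were 0.01 ± 0.07 (SD, n = 6) in WT_SD and -0.05 ± 0.09 (SD, n = 6) in TG_SD. The first surrogate variable followed the GC slope over 24 libraries with a Pearson's r of 0.93, as a description, and 28.9% of its variance lay between the 4 groups. Genotype on HFD and GC slope are thus partly confounded, and how much of the difference of a GC-rich gene belongs to either cannot be told apart. The second surrogate variable had 24.8% of its variance between the groups, but its Pearson's r with the GC slope was 0.34. Fits with 1 and 2 surrogate variables called 614 and 634 DEGs, and the fit with 3 called 28. Their variables were estimated anew for each number, so that they need not be those of the first model described above. Lypla1, for example, stood at 0.0756 with 0, 0.0744 with 1 and 0.0752 with 2 surrogate variables. What the second and later variables of the first model reflect was not tested.

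**Figure D2:**
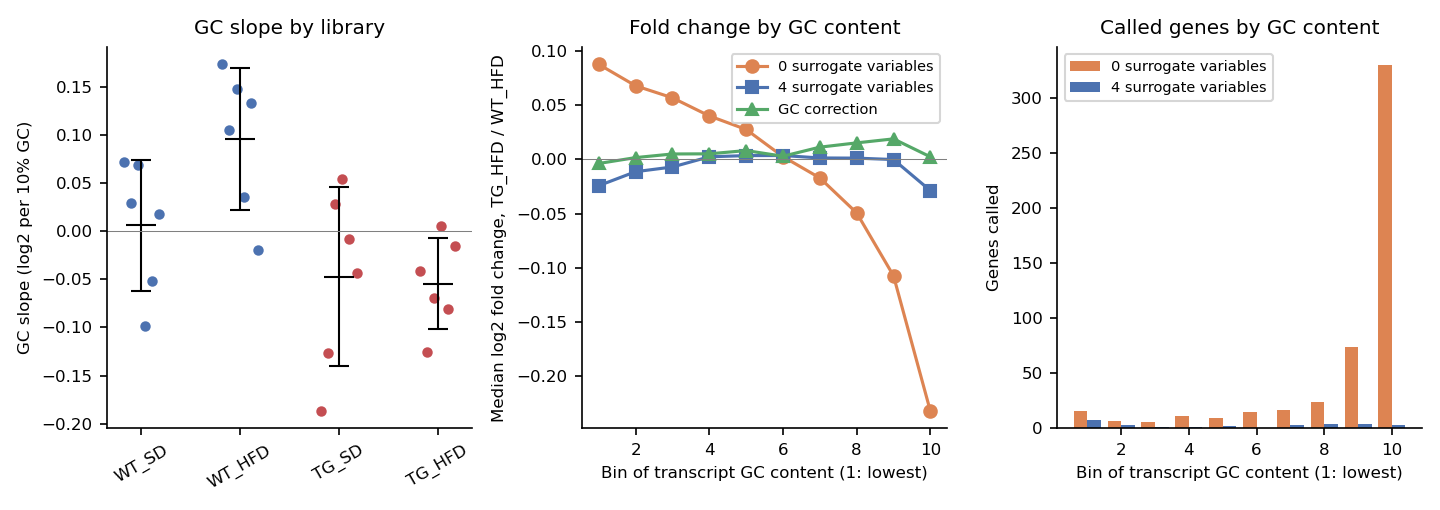
GC slope of each hippocampus library by group with mean and SD (left), the median log2 fold change of TG_HFD over WT_HFD in 10 bins of transcript GC content under 3 models (middle), and the DEGs in each bin under 2 models (right). With 0 surrogate variables the medians fall from 0.09 to -0.23 and 330 DEGs are in the highest bin. Both corrected models stay near 0, which for the GC correction follows from its construction.

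**Figure D3:**
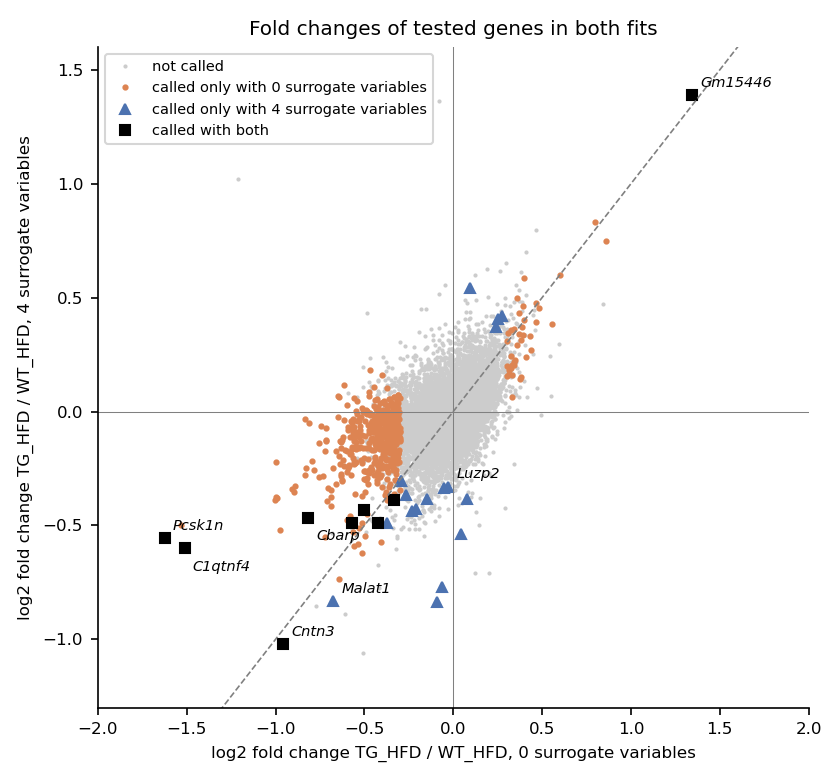
Log2 fold change of TG_HFD over WT_HFD for each tested gene with 0 (x axis) and with 4 surrogate variables (y axis); the dashed line marks equal values, and 5 genes that changed by 2 or more in either model lie outside. Most of the 515 genes called with 0 surrogate variables move toward 0 on the y axis, whereas Cntn3 and Gm15446 stay near the line.

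In the counts themselves, without a model, 551 genes (4.15% of those tested) did not overlap between the groups, with 98 higher and 453 lower in TG_HFD. Of the 30 DEGs with 4 surrogate variables 11 were among them, and of the 515 DEGs with 0 surrogate variables 268. The 10 genes of lowest adjusted p among these 268 that the first model did not call were Egr4, Gse1, Rprml, Lypla2, Prr7, Srebf2, Eml2, Map7d1, Matk and Panx2, all lower in TG_HFD. Prr7, a membrane protein of the postsynaptic density, had 88.9 to 169 normalized counts in WT_HFD (median 136) and 26.7 to 63.2 in TG_HFD (median 44.2). Its log2 fold change was -1.53 with 0 (edgeR adjusted p = 3.6e-04), -0.97 with the GC correction (edgeR adjusted p = 0.0023) and -0.50 ± 0.19 (adjusted p = 0.26) with 4 surrogate variables. Srebf2, the transcription factor that activates cholesterol synthesis, had 2414 to 3014 in WT_HFD (median 2816) and 2062 to 2405 in TG_HFD (median 2138). It stood at -0.36, -0.18 and -0.17 in the same order of models. Matk, a tyrosine kinase, stood at -0.56, -0.34 and -0.22, and Map7d1, a microtubule-associated protein, at -0.41, -0.08 and -0.14.

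Most functional lists held few DEGs. Of 23 lists, 4 held a DEG with 4 surrogate variables (Cbarp, Egr3, Serpina3n and Cntn3) and 18 held one with 0 surrogate variables. The counts with 0 surrogate variables are to be read beside the 3.56% of all tested genes that this model called lower and the 0.316% that it called higher. Negative log2 fold changes made up 52.2% of all tested genes with 4 and 48.9% with 0 surrogate variables. Nuclear subunits of complex I, the first enzyme of the respiratory chain, held 0 DEGs of 36 tested with 4 and 2 with 0 surrogate variables (Ndufb6 at -0.47 and Ndufs7 at -0.46), and the medians were -0.02 and -0.05. Of 41 nuclear subunits of complexes II to V, 0 were called with 4 and 4 with 0 surrogate variables, Cox6a1, Atp5d, Uqcrq and Cox8a, all lower. Uqcrq, a subunit of complex III, had 631 to 982 normalized counts in WT_HFD (median 781) and 423 to 631 in TG_HFD (median 510). It stood at -0.61 (edgeR adjusted p = 0.019) with 0, at -0.61 (edgeR adjusted p = 0.048) with the GC correction and at -0.04 ± 0.08 with 4 surrogate variables. Cox6a1, a subunit of complex IV, had 2081 to 2923 in WT_HFD and 1644 to 2058 in TG_HFD, and stood at -0.41, -0.07 and -0.20. The 13 protein genes of the mitochondrial genome held 0 DEGs in either model. Their median was 0.08 with 4 and 0.15 with 0 surrogate variables, where 0 of 13 were negative. The median GC content of these 13 genes was 37.1%, against 49.4% over tested genes. Mitochondrial ribosomal proteins held 0 DEGs of 76 with 4 and 3 with 0 surrogate variables, a share near that of all tested genes. Of 79 cytosolic ribosomal proteins, 13 had a negative log2 fold change with 4 surrogate variables, 0 were called, and the median was 0.05, while 2 were called lower with 0 surrogate variables. Proteasome subunits (35 tested) and mitochondrial protein import (21 tested) held 0 DEGs in both models.

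Apart from the calcium channel list with Cbarp, lists of receptors, channels and release genes of the synapse held 0 DEGs with 4 surrogate variables and 1 to 4 with 0. Of 33 ionotropic glutamate receptor genes and partners, 0 were called with 4 surrogate variables, and Grin1, Grip2, Grin2d and Cnih2 were called lower with 0. Grin1, the obligatory NMDA receptor subunit, had 2696 to 3447 normalized counts in WT_HFD (median 3232) and 2308 to 2605 in TG_HFD (median 2417). It did not overlap, and stood at -0.36 (edgeR adjusted p = 0.0021) with 0 and at -0.10 ± 0.05 with 4 surrogate variables. Grip2, a scaffold of AMPA receptors, had 252 to 272 in WT_HFD (median 262) and 124 to 231 in TG_HFD (median 157), again apart. Its log2 fold change was -0.64 (edgeR adjusted p = 0.0072) with 0 and -0.74 ± 0.19 (adjusted p = 0.085) with 4 surrogate variables, and 0.32 ± 0.15 on SD. The interaction of Grip2 was -1.06 with an unadjusted p of 2.4e-05 in edgeR, and with an adjusted p that missed the threshold. GABA-A receptor subunits (12 tested) held 0 DEGs with 4 and Gabra2 with 0 surrogate variables. Of 22 potassium channels, Kcnh2 and Kcnh3 were called lower with 0 surrogate variables, at -0.45 and -0.36. Of 38 genes of synaptic vesicles and release 1 was, Slc32a1, the vesicular transporter of GABA, at -0.35, a share no higher than that of all tested genes.

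Metabolic and stress genes added single members. Of 22 cholesterol synthesis genes 18 had a negative log2 fold change with 4 surrogate variables, beside 52.2% of all tested genes. The list's median was -0.10 and none of the 22 was called, while Srebf2 was called with 0 surrogate variables. Fdft1, which makes squalene, had 1028 to 1109 normalized counts in WT_HFD and 782 to 998 in TG_HFD, without overlap, and -0.28 ± 0.07 (edgeR adjusted p = 0.073). Hmgcs1 stood at -0.27 ± 0.06 (edgeR adjusted p = 0.056). Fatty acid genes (35 tested) and glycolysis genes (19 tested) held 0 DEGs in both models. Of 25 heat shock genes and chaperones, Hspa1a and Hspa1b were called lower with 0 surrogate variables, at -0.83 and -0.65, and stood at -0.03 and 0.07 with 4. Both are intronless copies of Hsp70 of nearly identical sequence, so that their separate counts are uncertain. Hspa1a was also called with the GC correction, at -0.62. Granins and neurotrophins (16 tested) held Resp18, an endocrine secretory protein, which was called higher at 0.36 with 0 and 0.37 with the GC correction and stood at 0.29 ± 0.08 (edgeR adjusted p = 0.10) with 4 surrogate variables, and Vgf, a granin-like peptide precursor, which was called lower at -0.41 with 0 and stood at -0.08 with 4. Homologs of Parkinson disease genes (19 tested) held 0 DEGs with 4 and Atp13a2, a lysosomal transporter of polyamines, with 0 surrogate variables. Atp13a2 had 1381 to 1894 in WT_HFD and 1076 to 1427 in TG_HFD, and stood at -0.44 with 0 and at 0.01 ± 0.05 with 4.

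The study singled out 9 genes for a network, and chose them on these samples, so that their direction is no independent evidence. With 0 surrogate variables all 9 were negative, 5 were called (Atp13a2, Cox6a1, Grip2, Mif and Uqcrq), and the median was -0.41. With 4 surrogate variables none was called and the median was -0.02, and with the GC correction 1 was called and the median was -0.11. Mif, a cytokine with tautomerase activity, had 843 to 1247 normalized counts in WT_HFD (median 1098) and 580 to 806 in TG_HFD (median 689), without overlap, and stood at -0.62, -0.25 and -0.11 with 0 surrogate variables, with the GC correction and with 4. Stub1, a ubiquitin ligase, stood at 0.19 ± 0.08 with 4 surrogate variables and at -0.37 (edgeR adjusted p = 0.062) with 0. Uchl1, a neuronal deubiquitinase, stood at -0.01 and -0.20, and Ndufa2, a complex I subunit, at -0.02 and -0.18. Nab2, a corepressor of Egr factors, stood at 0.07 ± 0.14 and -0.30 and was called in neither. Frem3, an extracellular matrix gene outside this network, had 32.3 to 47.7 normalized counts in WT_HFD and 59.4 to 80.6 in TG_HFD, without overlap, and 0.83 ± 0.20 (edgeR adjusted p = 0.056) with 4 and 0.80 (edgeR adjusted p = 0.0052) with 0 surrogate variables.

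**Figure D4:**
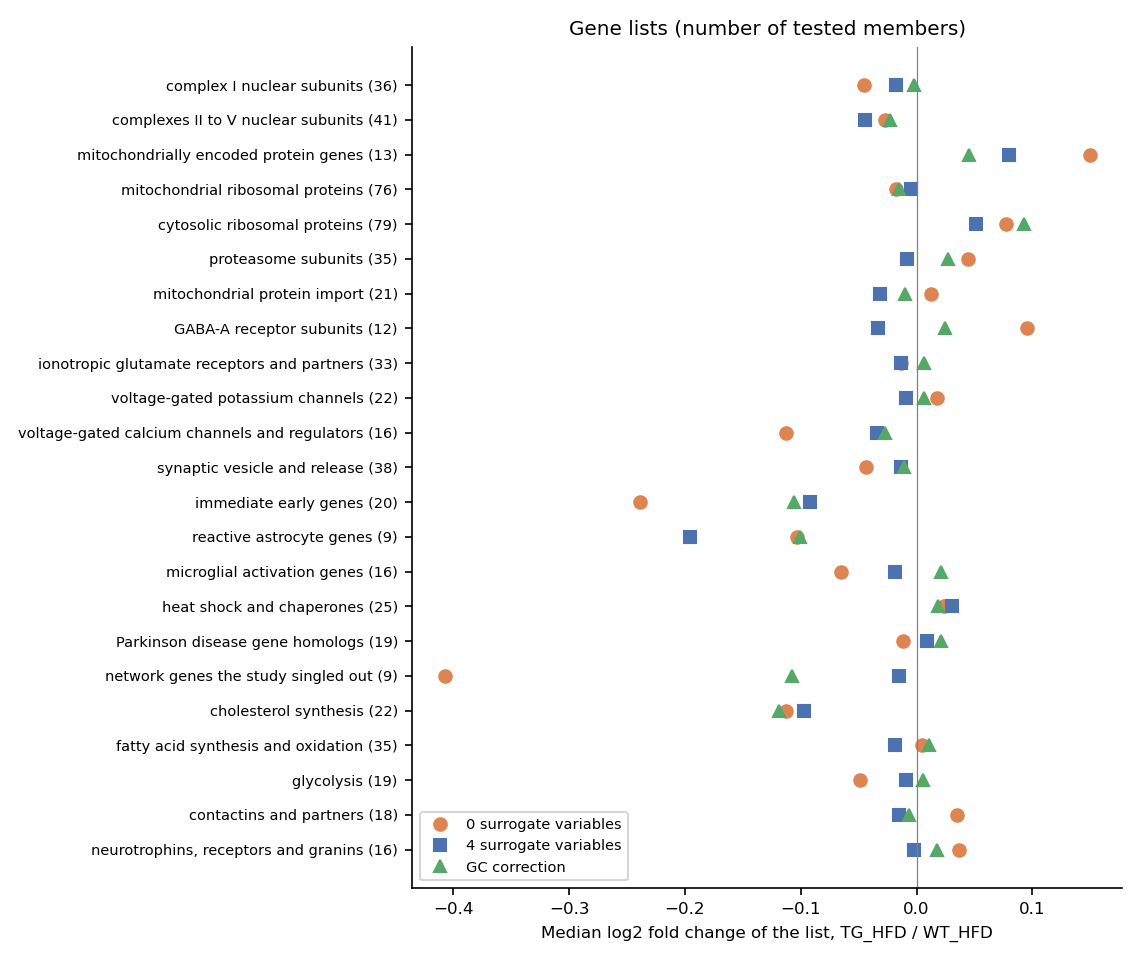
Median log2 fold change of TG_HFD over WT_HFD in each gene list, with the number of tested members, under 3 models. Immediate early genes (-0.24) and the network genes (-0.41) lie farthest below 0 with 0 surrogate variables, and reactive astrocyte genes (-0.20) with 4.

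On SD, the same model with 4 surrogate variables called 13 DEGs (0.098%). The SD mice were other animals than those on HFD. All 4 groups entered 1 fit, however, and shared its surrogate variables and its estimate of spread. Of the 30 DEGs on HFD, 7 were also among the 13 called on SD, namely the transgene, Thy1, Cntn3, Cbarp, Serpina3n, Car12 and Gm15446. The same sign was found on SD for 29 of the 30, beside 63.5% of all tested genes, and 29 were closer to 0 there, in part because they were chosen for their size on HFD. The interaction of genotype and diet called 0 genes in edgeR, where 794 genes had an unadjusted p of at most 0.05 and the lowest adjusted p was 0.131. Without surrogate variables, edgeR also called 0, with 801 at that unadjusted level, and DESeq2 called 0 with 4 and 1 with 0 surrogate variables. Among the 30 DEGs 18 had an unadjusted interaction p of at most 0.05, a count that shares its libraries with the choice of these genes. The interaction of Cntn3 was -0.02, whereas Pcsk1n stood at -0.45 and Malat1 at -0.55.

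In brainstem on HFD 26 of the 30 genes were tested, and 3 were called in a model with 4 surrogate variables for that region, which called 7 of 13340 genes (0.0525%). They were the transgene, Thy1 and Gm15446. The sign was the same for 18 of the 26, beside 52.6% of the 12619 genes tested in both regions. Nptx2 stood at 0.16 ± 0.17 and Malat1 at 0.22 ± 0.21, opposite in sign to the hippocampus and not called. Labels do not say which libraries of the regions came from the same mice, and the difference between the regions was not tested.

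**Figure D5:**
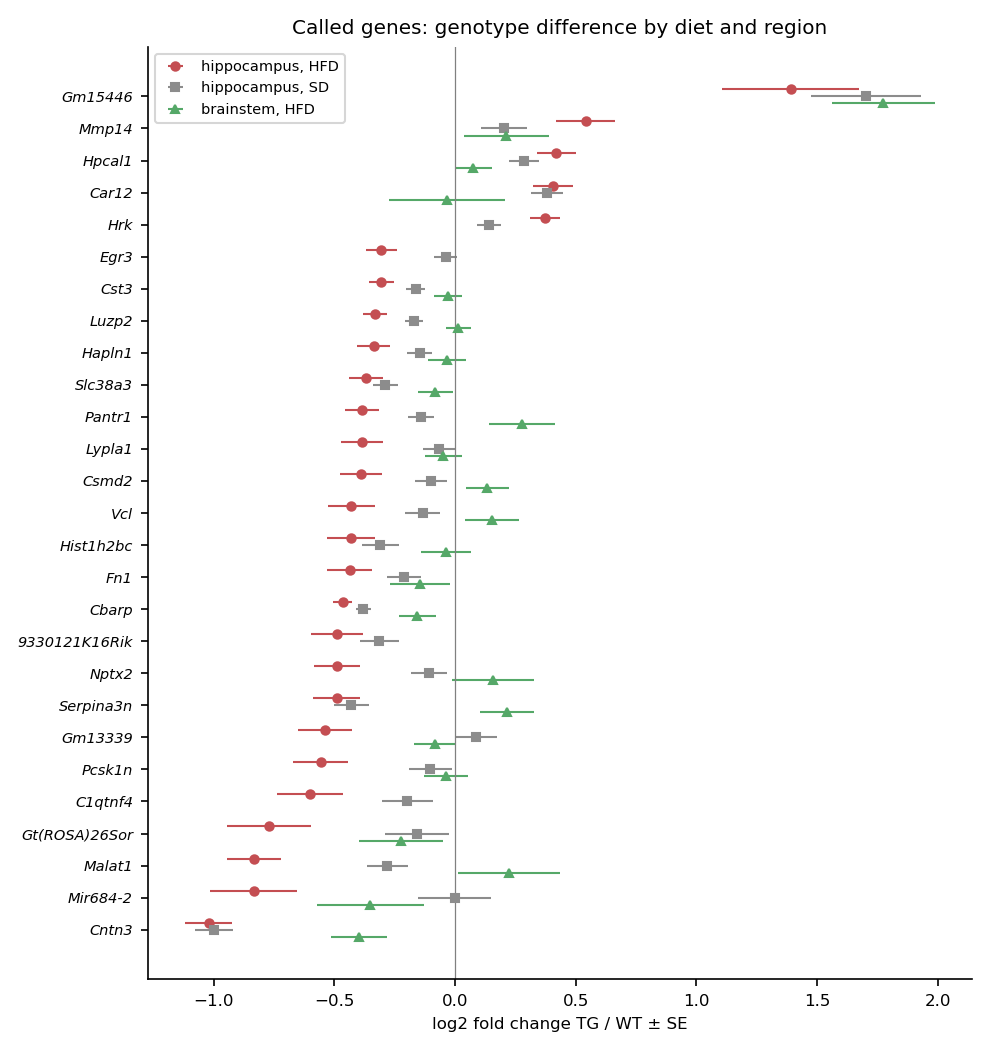
Log2 fold change of TG over WT with its SE for the DEGs on HFD with 4 surrogate variables (the transgene, Thy1 and Gm29611 lie outside), in hippocampus on HFD, hippocampus on SD and brainstem on HFD. Cntn3 is at -1.02, -1.0 and -0.40 and Gm15446 at 1.39, 1.70 and 1.77, while most other genes lie closer to 0 on SD.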

How the data were processed

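Reads of poly(A) libraries were aligned by the authors with STAR 2.7.9a to Ensembl release 104 with the human transgene added, after FastQC 0.11.9, and they deposited raw counts of reads per gene without normalization. The tool that assigned reads to genes, and its use of strand, are not given in the sources used here. Replicates are labelled as separate samples of a group, and p-values measure the spread between them. Genes averaging 50 counts or more over 24 hippocampus libraries were tested. Counts were TMM normalized and fitted with edgeR 4.0.16, with 4 groups in 1 model and 4 surrogate variables from sva 3.50.0 (Leek's method estimated 0), in R 4.3.3. Normalized counts are scaled to the mean library. The GC correction fitted each library's departure from the mean library, on the log2 scale, by loess on transcript GC content and entered it as an offset. GC content and length were those of the longest transcript in GENCODE for GRCm38, with 18 tested genes unmatched. Brainstem was fitted in the same way. Library measures were compared by exact permutation of 924 relabellings in scipy 1.17.1, and figures used matplotlib 3.10.9. DESeq2 1.42.0 was an alternative. The fits were tested on simulated data. Members and gene lists were chosen with earlier results of these data known. Named genes were Thy1, every DEG of the first model, 13 listed genes, most of them named by the study, up to 4 members of each list by size of change in that model (those that a list's account turns on are given), list members called in another model, and 10 genes called only without surrogate variables. Depth limits low counts most, and the median SE of a log2 fold change was 0.0818. Other settings tried are given in the closing part.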

Additional observations from a re-analysis of the deposited data

Results flagged for a closer look

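Among 114 groups of 6 values checked for a library far from the others of its group, 5 held one, where chance alone gives about 1 in 20. Gm29611 was at 162 normalized counts in WT_HFD replicate 3, where the other WT_HFD libraries ended at 20.8. Gm15446 was at 352 in WT_HFD replicate 6, where the others ended at 137, and at 406 (405.5) in TG_HFD replicate 7, where the others ended at 362. Serpina3n was at 744 in WT_HFD replicate 6, where the others began at 951. Lypla1 was at 298 in TG_HFD replicate 4, where the others ended at 227.5. Of these 5 values, 2 were in WT_HFD replicate 6.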

How the results depend on the processing

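The count of DEGs depended above all on the number of surrogate variables, which were estimated anew for each number. It was 30 with 4 (7 higher, 23 lower), 28 with 3, 515 with 0 (42, 473), 614 with 1 (58, 556) and 634 with 2 (65, 569). RLE scaling gave 29, edgeR's filterByExpr 25, a filter on a total count of 50 gave 39 (13 higher), no fold threshold 43, and DESeq2 27 with 4 and 550 with 0 surrogate variables (54, 496). Without surrogate variables, the GC correction gave 96 (23, 73), the length correction 521 (65, 456), and a fit of only TG_HFD and WT_HFD 595 (56, 539). The replicate numbers are shared across groups, but samples of the same number did not deviate together (correlations from -0.09 to 0.30), so that they were not taken as pairs. With the replicate number as a block, 14 DEGs were called (6, 8), of which 12 were among the 30, 573 without surrogate variables (51, 522), and 131 with the GC correction (36, 95). The interaction gave 1 DEG with DESeq2 and 0 surrogate variables and 3 with the filter on a total count of 50. It gave 0 in edgeR's other fits with all libraries, and 0 to 2 where 1 library was left out.

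Leaving out 1 library gave 13 to 64 DEGs with 4 surrogate variables (4 to 10 higher, 9 to 54 lower) and 336 to 692 with 0 (24 to 54 higher, 309 to 638 lower, with 312 without TG_HFD replicate 4). With 4, the counts beyond 1.5 times the main one were 13 without TG_HFD replicate 8, 15 without TG_HFD replicate 7, 19 without TG_HFD replicate 5 and 64 without WT_HFD replicate 8, and with 0, 336 without TG_HFD replicate 4 and 341 without WT_HFD replicate 7. Of the 30 DEGs, 7 were called in all of these fits with 4 surrogate variables, and 5 (the transgene, Thy1, Cntn3, Cbarp and Nptx2) in all 27 other settings.

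Among named genes that were called with 4 surrogate variables or in the other setting, the sign turned for 7. Named genes called in neither are not counted here. Gm29611 was at 10.27 without WT_HFD replicate 6 and at 1.78 without WT_HFD replicate 8, and reached -13.16 without WT_HFD replicate 7. With 0, 1 and 2 surrogate variables, DESeq2 with 0, the length correction, the fit of the compared groups alone and the block without surrogate variables, in this order, Lypla1 lay at 0.0756, 0.0744, 0.0752, 0.0845, 0.0878, 0.0749 and 0.0777, and Gm13339 at 0.0447, 0.0417, 0.0527, 0.0509, 0.0224, 0.0447 and 0.0491. In the same settings the following were called lower: Atp13a2 at -0.44, -0.43 or -0.42, Rps4l at -0.52, -0.51 or -0.50, and Hspa1b at -0.65, -0.64 or -0.62. Stub1 was called at -0.37 or -0.36 under 4 of these settings. The cause was not tested. The GC slope differed by -0.14 under the filter on a total count of 50, against -0.15.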
